A study of Homo sapiens with 9 samples.

Results

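Cholesterol supply in MDA-MB-231 cells, a human triple-negative breast adenocarcinoma line, is described here through 31 genes. They were chosen by name, with earlier results of these data known. They are enzymes of the mevalonate and sterol pathways, regulators of the transcription factor SREBP2, sterol carriers, and LXR-type genes, namely 2 efflux pumps and MYLIP. All 31 had a row among the 26475 rows of the deposited table, and all 31 passed the filter on low counts that left 14135 genes to be tested. RNA-seq was done on 9 libraries in 3 groups of 3. Control cells were stably transduced with the empty lentiviral vector pLKO.1. ACSL4 knockdown cells carried pLKO.1-shACSL4, the same vector with a hairpin against ACSL4, a synthetase that activates polyunsaturated fatty acids. The remaining group was control cells, and so cells with the empty vector, given the ACSL4 inhibitor PRGL493. No dose, exposure time or vehicle is given for PRGL493, and the number of hairpins or transduced populations is not given either. Libraries of a group came from separate batches of cells, so the p-values rest on the variation among batches of the same stable cells. Less RNA from every cell and fewer expressing cells cannot be told apart in such libraries.

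Cells build cholesterol from acetyl-CoA, first to mevalonate and farnesyl diphosphate, then through squalene and lanosterol to cholesterol. SREBP2, encoded by SREBF2, switches on most enzymes of this path. When sterols are plentiful in the endoplasmic reticulum, the SREBP2 escort protein SCAP is held there by INSIG1 or INSIG2, and when they are scarce SCAP takes SREBP2 to the Golgi, where it is cut and released to the nucleus. Excess sterol acts the other way through the oxysterol receptors LXR, whose targets include the efflux pumps ABCA1 and ABCG1 and MYLIP, a ubiquitin ligase that removes lipoprotein receptors. SREBP2 targets and LXR targets therefore often move in opposite directions when the sterol content of a cell changes.

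Totals ran from 28673940 to 43027217 counts per library. Levels are in CPM, counts scaled to library size with TMM factors, and adjusted p-values are from edgeR's quasi-likelihood test over all genes. The targeted gene ACSL4 was at 342, 339 and 366 CPM with the empty vector, 29.5, 23.7 and 27.6 after knockdown and 333, 349.9 and 360.0 under PRGL493, so its RNA was 7.73% of control in knockdown cells and its PRGL493 libraries overlapped the controls (adjusted p = 0.95). Knockdown replicate 2 stood apart by transcript length. Short transcripts, of at most 2353 bp, had a median log2 deviation of 0.17 from the mean of the 9 libraries in it, and long ones, over 5368 bp, of -0.16, against -0.07 to 0.06 for either class elsewhere. All 6 markers of the line's mesenchymal state were high, from 79.1 CPM upwards for ZEB1 and 1610 CPM upwards for VIM. Of 6 genes expected to be low, ESR1, PGR, FOXA1 and KRT14 stayed at or below 0.155 CPM and CDH1 at or below 2.04 CPM, while GATA3 was at 10.9 to 15.2 CPM. Of 9 markers of other cell types, 8 were at or below 3.11 CPM in every library. CD68, a lysosomal protein used as a macrophage marker, was at 91.4 to 151 CPM, so that the summed level of the 9 was 124 to 138 CPM in control, 142 to 153 CPM in knockdown and 94.1 to 103 CPM in PRGL493 libraries. The leukocyte gene PTPRC was at or below 0.0791 CPM throughout. The part of the CD68 difference in the results below was not tested.

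Every sterol gene called in ACSL4 knockdown cells was lower, and most of those called with PRGL493 were higher. In knockdown cells 15 of the 31 were lower and 0 higher at an adjusted p below 0.05, with a median log2 fold change (log2FC) of -0.15, where 15.3% of all genes tested were lower, 14.7% were higher and the median of all was 0.00. With PRGL493 22 were higher and 3 lower, with a median of 0.48, where 21.4% of all genes tested were higher, 20.4% were lower and the median was 0.01. The 31 genes were chosen with earlier results of these data known, so the shares of all genes serve as a scale and not as a test. Of the 20 enzymes 10 were lower in knockdown cells (median -0.17), and all 20 were called with PRGL493, 18 of them higher and 2 lower (median 0.62). The summed level of the 20 enzymes was 1374 to 1412 CPM in control libraries, 1178 to 1248 CPM in knockdown libraries and 2063 to 2083 CPM in PRGL493 libraries, so the 3 groups did not overlap. For single genes such separation was common. Of the 14135 genes tested, libraries overlapped for 8197 in knockdown against control and for 6044 with PRGL493 against control. Of the 31 genes, libraries overlapped for 14 and 4. Both treatments were compared with the same 3 control libraries, so their values are given side by side and the treatments are also compared directly further down. The count of 0 higher genes in knockdown cells was also 0 in edgeR with a replicate block, in DESeq2 and in limma-voom, and at an unadjusted p below 0.05 3 sterol genes (GGPS1, LBR and ABCG1) were higher. It became 1 without knockdown replicate 1 or without knockdown replicate 2, 2 with upper-quartile factors and 3 with library totals alone.

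**Figure D1:**
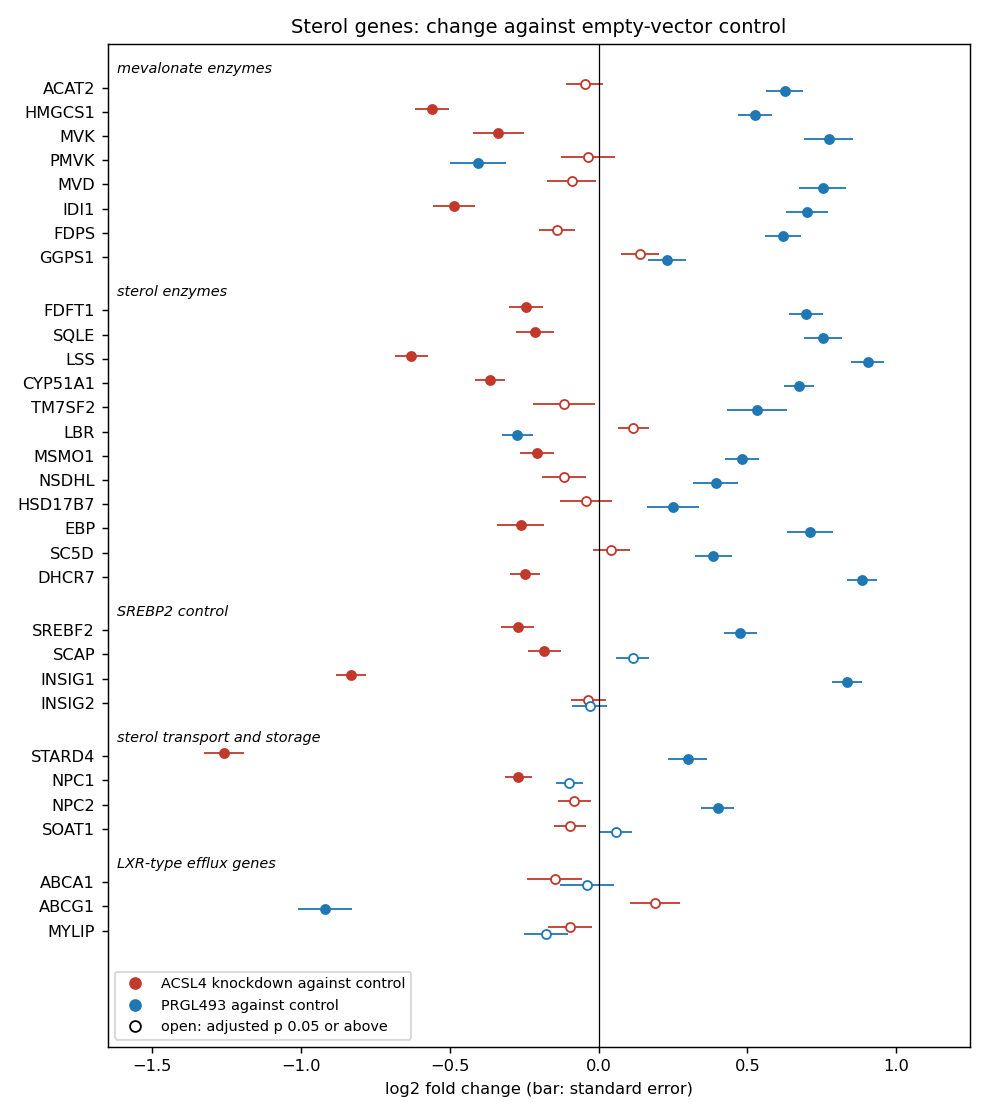
Log2 fold change against empty-vector control (x axis) of the 31 sterol genes (y axis), grouped by role, with MYLIP placed beside the efflux pumps, for ACSL4 knockdown in red and PRGL493 in blue, with the standard error as a bar and open symbols for an adjusted p of 0.05 or above. Of the 20 enzymes 18 lie to the right of 0 with PRGL493, and among the knockdown values the furthest to the left is STARD4 at -1.26.

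SREBF2 and INSIG1, which code for the factor and for the brake on its release, both fell in knockdown cells and rose with PRGL493. SREBF2 was at 198, 203 and 195 CPM with the empty vector, 164, 154 and 176 after knockdown and 283, 286 and 259.6 under PRGL493. The groups did not overlap, with a modest fall in knockdown cells (log2FC -0.27, SE 0.06, adjusted p = 0.0017) and a larger rise with PRGL493 (log2FC 0.48, SE 0.06, adjusted p = 4.5e-06). INSIG1, itself a target of SREBP2, was at 158, 165 and 159 CPM with the empty vector, 89.1, 92.5 and 88.8 after knockdown and 273, 285 and 302 under PRGL493. Its libraries lay close together within each group and far apart between groups. It fell 1.78-fold in knockdown cells (log2FC -0.83, SE 0.05, adjusted p = 2.6e-09) and rose 1.78-fold with PRGL493 (log2FC 0.84, SE 0.05, adjusted p = 1.5e-09). The gene lies on the plus strand of chromosome 7 from 155297776 to 155310235 (GRCh38), and no other gene of the deposited table overlaps it.

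INSIG2, the other retention protein, was called in neither treatment. It was at 135, 128 and 135 CPM with the empty vector, 137, 126 and 125 after knockdown and 124, 125 and 141 under PRGL493, and the groups overlapped. Its log2 fold change had a 95% interval of -0.16 to 0.09 in knockdown cells and of -0.15 to 0.10 with PRGL493. Per kilobase of annotated exon, a scale on which levels of different genes can be set side by side, INSIG1 stood at 44 CPM and INSIG2 at 33.6 CPM in control cells. In knockdown cells INSIG1 stood at 24.7 and INSIG2 at 32.8 CPM per kilobase, and with PRGL493 at 78.5 and 32.9. INSIG1 was therefore above INSIG2 in every control and every PRGL493 library and below it in every knockdown library. SCAP, the escort, was at 93.8, 94.0 and 84.8 CPM with the empty vector, 77.2, 81.9 and 81.2 after knockdown and 97.7, 101 and 96.2 under PRGL493. Every knockdown library lay below every control, by a small margin. SCAP fell slightly in knockdown cells (log2FC -0.18, SE 0.06, adjusted p = 0.021) and did not pass the test with PRGL493 (log2FC 0.12, SE 0.06, adjusted p = 0.11). The fall of SCAP was not called without control replicate 1 (adjusted p = 0.095), without control replicate 2 (adjusted p = 0.10), with upper-quartile factors (adjusted p = 0.054) or with a trend on transcript length and GC content removed, where it shrank to -0.05 (adjusted p = 0.34).

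**Figure D2:**
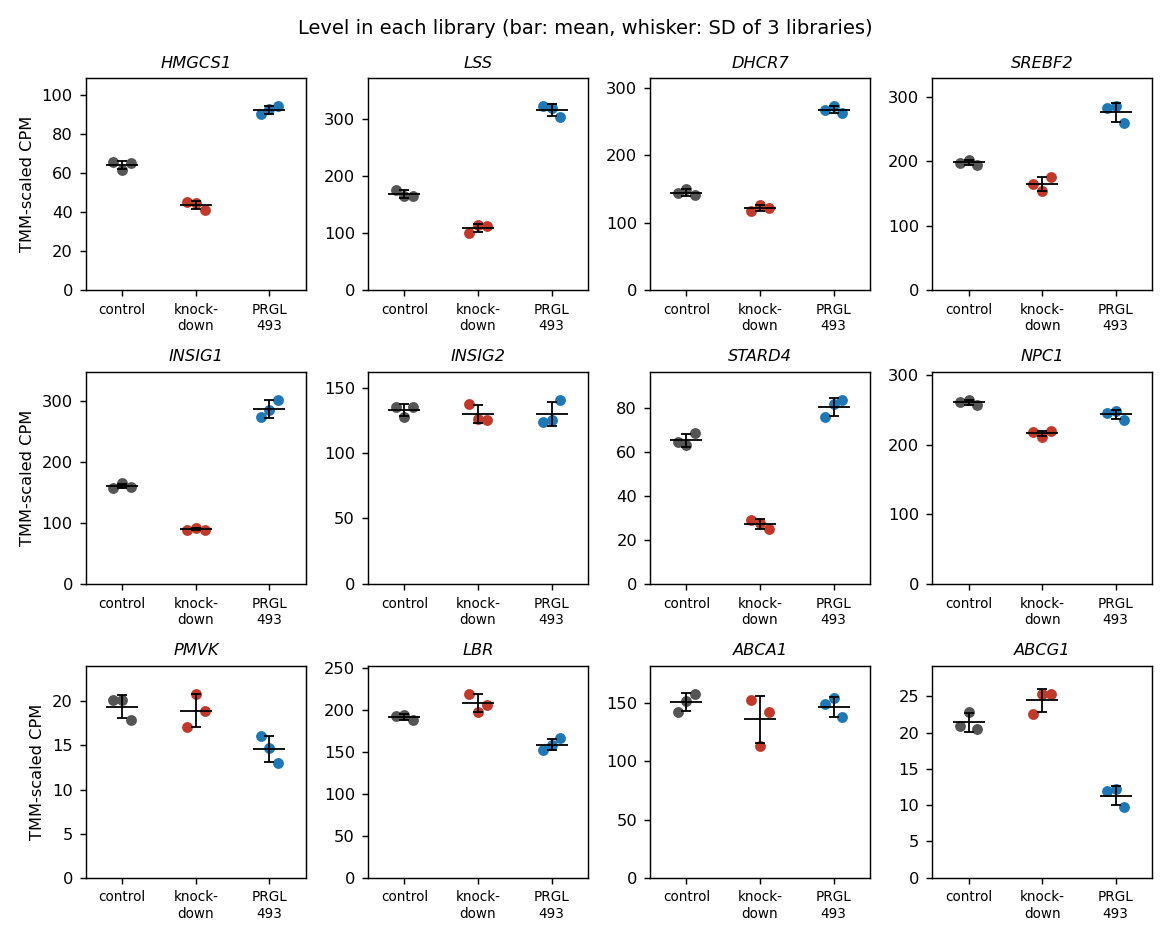
Level in TMM-scaled CPM (y axis, from 0) of 12 sterol genes in each of the 9 libraries, by group (x axis), with the mean as a bar and the SD of 3 libraries as a whisker. INSIG1 falls to 88.8 to 92.5 CPM in knockdown and rises to 273 to 302 CPM with PRGL493 while INSIG2 overlaps between groups, and ABCG1 drops to 9.79 to 12.3 CPM with PRGL493.

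To set these changes beside the sequence upstream, the 250 bases before each listed gene start were read from RefSeq's GRCh38.p14 promoters, which matched 27 of the 31 genes with 36 starts (not ACAT2, FDFT1, SQLE and ABCG1). RefSeq's starts can differ from those of the gene positions given here, which are GENCODE's. The letters searched on both strands were TCACNCCAC for SREBP, CCAAT for NF-Y, which assists SREBP at many sterol genes, GGGCGG for the GC box that Sp1 binds, and CACGTG for the E-box. None of the 4 contains another, and a gene with several starts counts as holding a motif when any of them does. A pair of AGGTCA half-sites in the same direction with 4 bases between stood for LXR. The SREBP letters were found before SREBF2 alone, from base -133 to base -125 counted back from its start, and in 1.17% of the 10439 tested genes with a promoter. Only this exact spelling was counted, so genes without it may hold sites spelled otherwise. NF-Y letters were found before 20 of the 27 genes (74.1%, against 41.3% of tested genes), and at least 2 matches before 12 of them (44.4%, against 15.0%). GC boxes were found before 25 of 27 (92.6%, against 74.0%) and E-boxes before 4 of 27 (14.8%, against 11%). The LXR pair was found before 0 of the 27 and 0 of the 10439, so its absence cannot set the 27 genes apart. ABCG1 had no promoter to search. All these counts are matches of letters in a short window and say nothing of what is bound there.

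The NF-Y letters were found before 18 of the 19 genes that rose with PRGL493 and had a promoter, with CYP51A1 the exception, and before 2 of the 8 others (SOAT1 and MYLIP). Over all tested genes with a promoter the share was 46.1% of those higher with PRGL493, 40.3% of those lower and 39.8% of those not called. By the knockdown calls they were found before 10 of the 13 genes that fell and 10 of the 14 that were not called. Over all tested genes with a promoter the share was 40.8% of those lower in knockdown cells, 46.1% of those higher and 40.4% of those not called. With PRGL493, CYP51A1, SOAT1 and MYLIP went against the pattern, and they are not among the sequences below. Those shown were picked to set genes of the responding kind beside the pair of enzymes that went the other way with PRGL493. The sequences shown therefore cannot tell how often letters and response go together. Each is given 5′ to 3′ on the gene's own strand and ends at the base before the start, with SREBP and NF-Y matches in capitals (ATTGG is CCAAT read from the opposite strand). SREBF2 has both kinds, INSIG1 and LSS have 1 NF-Y match, STARD4 has 2, MSMO1 has 4 and MVK has 5, while PMVK and LBR have neither kind.
SREBF2, chr22:41832855-41833104, plus strand: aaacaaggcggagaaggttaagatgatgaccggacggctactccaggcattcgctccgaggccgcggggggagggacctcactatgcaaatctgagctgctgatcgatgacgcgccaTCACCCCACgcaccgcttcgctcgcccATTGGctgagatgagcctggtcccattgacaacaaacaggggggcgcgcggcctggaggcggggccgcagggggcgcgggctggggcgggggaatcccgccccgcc
INSIG1, chr7:155297628-155297877, plus strand: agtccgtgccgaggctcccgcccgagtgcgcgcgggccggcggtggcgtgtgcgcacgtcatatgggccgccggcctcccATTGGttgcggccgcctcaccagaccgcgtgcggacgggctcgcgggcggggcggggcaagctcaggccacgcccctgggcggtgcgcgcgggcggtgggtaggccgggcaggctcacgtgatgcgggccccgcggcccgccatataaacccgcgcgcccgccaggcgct
STARD4, chr5:111512536-111512785, minus strand: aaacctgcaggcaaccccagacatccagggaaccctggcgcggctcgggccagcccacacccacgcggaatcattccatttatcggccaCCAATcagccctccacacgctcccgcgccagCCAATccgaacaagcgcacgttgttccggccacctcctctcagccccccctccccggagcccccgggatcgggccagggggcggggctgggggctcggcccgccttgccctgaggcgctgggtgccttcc
LSS, chr21:46228775-46229024, minus strand: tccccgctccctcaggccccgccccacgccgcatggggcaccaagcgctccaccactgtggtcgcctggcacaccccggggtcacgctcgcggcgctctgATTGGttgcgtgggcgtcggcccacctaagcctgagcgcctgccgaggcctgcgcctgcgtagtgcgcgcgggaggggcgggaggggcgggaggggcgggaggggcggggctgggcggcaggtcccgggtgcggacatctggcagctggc
MVK, chr12:109573544-109573793, plus strand: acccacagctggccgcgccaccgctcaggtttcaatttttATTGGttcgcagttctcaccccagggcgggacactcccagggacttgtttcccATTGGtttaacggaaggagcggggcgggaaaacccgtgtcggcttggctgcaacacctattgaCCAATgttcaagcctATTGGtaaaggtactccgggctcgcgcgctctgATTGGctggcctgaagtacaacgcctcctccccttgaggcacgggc
MSMO1, chr4:165327419-165327668, plus strand: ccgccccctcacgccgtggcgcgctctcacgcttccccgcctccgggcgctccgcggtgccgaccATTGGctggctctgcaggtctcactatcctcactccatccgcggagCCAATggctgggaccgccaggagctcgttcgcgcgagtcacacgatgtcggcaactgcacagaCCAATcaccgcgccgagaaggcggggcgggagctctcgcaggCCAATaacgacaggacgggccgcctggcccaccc
PMVK, chr1:154936720-154936969, minus strand: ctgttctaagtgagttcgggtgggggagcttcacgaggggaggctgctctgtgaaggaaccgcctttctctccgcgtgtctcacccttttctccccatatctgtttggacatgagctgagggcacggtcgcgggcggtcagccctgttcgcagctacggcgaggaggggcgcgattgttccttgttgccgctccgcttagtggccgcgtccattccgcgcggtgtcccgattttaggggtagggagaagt
LBR, chr1:225428822-225429071, minus strand: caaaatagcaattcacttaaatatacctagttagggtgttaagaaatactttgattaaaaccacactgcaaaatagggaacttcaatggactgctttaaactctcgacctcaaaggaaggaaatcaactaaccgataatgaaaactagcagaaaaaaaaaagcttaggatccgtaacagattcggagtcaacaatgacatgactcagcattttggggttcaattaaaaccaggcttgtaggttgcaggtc

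**Figure D3:**
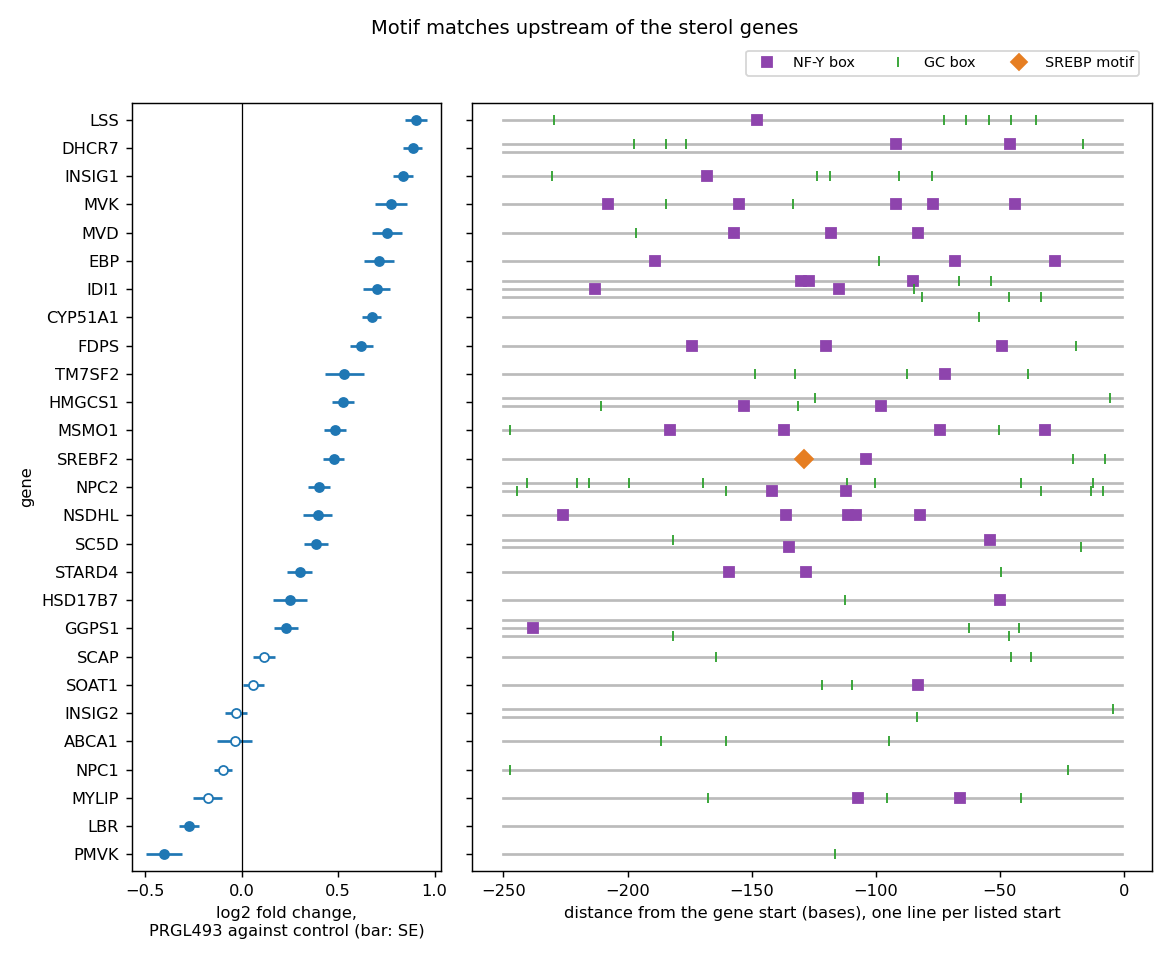
Left, log2 fold change with PRGL493 against control (x axis, bar for the SE, open symbol for an adjusted p of 0.05 or above) of the 27 genes with a promoter, ordered by it (y axis). Right, position of the NF-Y, GC box and SREBP letters by distance from the gene start in bases (x axis), with 1 line per listed start, where 18 of the 19 genes that rose hold a square.

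The mevalonate enzymes make isoprenoid units from acetyl-CoA. Of 8 listed, 3 fell and 0 rose in knockdown cells (37.5% and 0%, against 15.3% and 14.7% of all genes tested). With PRGL493 7 rose and 1 fell (87.5% and 12.5%, against 21.4% and 20.4%). HMGCS1, which makes HMG-CoA, was at 65.7, 61.6 and 64.9 CPM with the empty vector, 44.9, 44.5 and 40.9 after knockdown and 89.9, 92.7 and 94.2 under PRGL493. Its 3 groups were fully apart, with a 1.48-fold fall in knockdown cells (log2FC -0.56, SE 0.06, adjusted p = 1.5e-06) and a 1.44-fold rise with PRGL493 (log2FC 0.53, SE 0.06, adjusted p = 1.4e-06). IDI1, the isomerase of isopentenyl diphosphate, was at 76.7, 74.5 and 81.7 CPM with the empty vector, 58.2, 57.0 and 51.1 after knockdown and 118, 119 and 141 under PRGL493. PRGL493 replicate 3 stood above its fellows, and the groups were still apart (knockdown log2FC -0.49, SE 0.07, adjusted p = 9.8e-05, PRGL493 log2FC 0.70, SE 0.07, adjusted p = 9.3e-07). MVK, mevalonate kinase, was at 17.8, 17.8 and 15.5 CPM with the empty vector, 12.1, 14.8 and 13.7 after knockdown and 30.4, 28 and 28.7 under PRGL493. Its groups were apart, narrowly so for knockdown replicate 2. MVK fell in knockdown cells (log2FC -0.34, SE 0.09, adjusted p = 0.0072) and rose with PRGL493 by the largest amount among the 8 (log2FC 0.77, SE 0.08, adjusted p = 1.6e-06).

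The other mevalonate enzymes were called with PRGL493 but not in knockdown cells. MVD, the decarboxylase that ends the mevalonate steps, was at 15.5, 14.2 and 14.1 CPM with the empty vector, 12.5, 14.8 and 13.8 after knockdown and 25.8, 24.8 and 22.9 under PRGL493. FDPS, which makes farnesyl diphosphate, was at 104, 110.2 and 100.1 CPM with the empty vector, 88.7, 104 and 93.6 after knockdown and 164, 160.5 and 159 under PRGL493. In both genes the knockdown libraries overlapped the controls and every PRGL493 library lay above them (MVD log2FC 0.75, SE 0.08, adjusted p = 1.6e-06, FDPS log2FC 0.62, SE 0.06, adjusted p = 5.1e-07). FDPS in knockdown cells missed the threshold (log2FC -0.14, SE 0.06, adjusted p = 0.092) and passed it without knockdown replicate 2 (-0.20, adjusted p = 0.0038) and once the length and GC trend was taken out (-0.15, adjusted p = 0.0058). ACAT2, the thiolase that starts the path, was at 29, 30.2 and 30.0 CPM with the empty vector, 28.6, 30.7 and 27.1 after knockdown and 46.7, 46.4 and 44.5 under PRGL493, which is a rise with PRGL493 (log2FC 0.62, SE 0.06, adjusted p = 7.2e-07) and no call in knockdown cells (adjusted p = 0.61). SOD2 overlaps 26.5% and TCP1 9.2% of the annotated exon bases of ACAT2 on the opposite strand, and whether counting used the strand is not given, so its level is uncertain. GGPS1, which leads away from sterols to geranylgeranyl groups, had the smallest rise with PRGL493 of the 7 (33.0 ± 0.771 to 38.7 ± 0.929 CPM, n = 3, log2FC 0.23, SE 0.06, adjusted p = 0.0074), and TBCE shares 37.3% of its exon bases on the same strand. In knockdown cells GGPS1 was at 36.3 ± 2.39 CPM (log2 fold change 0.14, adjusted p = 0.10), and was called higher with upper-quartile factors (0.17, adjusted p = 0.049) and with library totals alone (0.17, adjusted p = 0.041). PMVK, phosphomevalonate kinase, went the other way and fell with PRGL493 (19.4 ± 1.3 to 14.6 ± 1.51 CPM, log2FC -0.41, SE 0.09, adjusted p = 0.0022), and was not called in knockdown cells (18.9 ± 1.88 CPM, adjusted p = 0.81).

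The sterol enzymes turn farnesyl diphosphate into squalene, lanosterol and cholesterol. Of 12 listed, 7 fell and 0 rose in knockdown cells (58.3% and 0%, against 15.3% and 14.7% of all genes tested). With PRGL493 11 rose and 1 fell (91.7% and 8.33%, against 21.4% and 20.4%). The median log2 fold change of the 12 was -0.21 in knockdown cells and 0.60 with PRGL493, against 0.00 and 0.01 for all genes. LSS, which folds the epoxide of squalene into lanosterol, was at 176, 166 and 165 CPM with the empty vector, 101, 115 and 112 after knockdown and 324, 320.3 and 304 under PRGL493. It had the largest change of the 20 enzymes in both treatments, 1.55-fold down in knockdown cells (log2FC -0.63, SE 0.06, adjusted p = 3.1e-07) and 1.87-fold up with PRGL493 (log2FC 0.90, SE 0.06, adjusted p = 1.9e-09). LSS lies on the minus strand of chromosome 21 from 46188141 to 46228824. DHCR7, the reductase of the last step, was at 144, 149.7 and 140.2 CPM with the empty vector, 117, 126 and 122 after knockdown and 267, 273 and 262 under PRGL493. Its fall in knockdown cells was small (log2FC -0.25, SE 0.05, adjusted p = 0.0013) beside its rise with PRGL493 (log2FC 0.89, SE 0.05, adjusted p = 5.2e-10). CYP51A1, the lanosterol demethylase, was at 124, 119 and 117 CPM with the empty vector, 97.2, 93.3 and 89.6 after knockdown and 189.6, 195 and 189.7 under PRGL493. All its groups were apart (knockdown log2FC -0.36, SE 0.05, adjusted p = 5e-05, PRGL493 log2FC 0.67, SE 0.05, adjusted p = 2.3e-08).

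FDFT1, squalene synthase, and SQLE, squalene epoxidase, stand where the path commits to sterols. FDFT1 was at 94.8, 99.6 and 92.0 CPM with the empty vector, 77.2, 86.5 and 78.2 after knockdown and 157, 155 and 153 under PRGL493 (knockdown log2FC -0.24, SE 0.06, adjusted p = 0.0037, PRGL493 log2FC 0.70, SE 0.06, adjusted p = 5.5e-08). SQLE was at 25.4, 25.4 and 24.3 CPM with the empty vector, 20.8, 23.1 and 20.9 after knockdown and 42.6, 41.1 and 43.1 under PRGL493 (knockdown log2FC -0.21, SE 0.07, adjusted p = 0.02, PRGL493 log2FC 0.76, SE 0.06, adjusted p = 9.9e-08). In both genes the highest knockdown library, replicate 2, lay close under the lowest control. EBP, the sterol isomerase, was at 55.9, 57.2 and 52.0 CPM with the empty vector, 40.6, 53.1 and 44.1 after knockdown and 92.1, 89.5 and 88.7 under PRGL493. Knockdown replicate 2 of EBP overlapped the controls (knockdown log2FC -0.26, SE 0.08, adjusted p = 0.02, PRGL493 log2FC 0.71, SE 0.08, adjusted p = 2.5e-06). MSMO1, which removes methyl groups, went from 118 ± 0.947 CPM to 103 ± 6.42 in knockdown cells (log2FC -0.21, SE 0.06, adjusted p = 0.012) and to 166 ± 9.13 with PRGL493 (log2FC 0.48, SE 0.06, adjusted p = 4.6e-06). The knockdown calls of SQLE, EBP and MSMO1 were lost with 1 library fewer, while most values moved little. SQLE was not called without control replicate 1, control replicate 2 or knockdown replicate 3 (-0.20, -0.20 and -0.19, adjusted p = 0.069, 0.070 and 0.075). EBP was not called without any of these (-0.25, -0.23 and -0.23, adjusted p = 0.069, 0.085 and 0.081) or without knockdown replicate 1 (-0.18, adjusted p = 0.060). MSMO1 was not called without knockdown replicate 3 (-0.16, adjusted p = 0.073).

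TM7SF2 and LBR encode reductases of the same sterol double bond, and they parted with PRGL493. TM7SF2 was at 14.9, 15.0 and 12.4 CPM with the empty vector, 11.2, 14.1 and 13.8 after knockdown and 20.9, 22.1 and 18.3 under PRGL493, a rise (log2FC 0.53, SE 0.10, adjusted p = 0.00054). LBR, which also anchors heterochromatin at the inner nuclear membrane, fell (192 ± 3.37 to 159 ± 6.95 CPM, log2FC -0.27, SE 0.05, adjusted p = 0.00055). In knockdown cells TM7SF2 was not called (13.1 ± 1.58 CPM, adjusted p = 0.43). LBR in knockdown cells was at 208 ± 10.9 CPM (log2 fold change 0.12, adjusted p = 0.10) and was called higher without knockdown replicate 2 (0.15, adjusted p = 0.018), with upper-quartile factors (0.15, adjusted p = 0.038), with library totals alone (0.15, adjusted p = 0.042) and once the length and GC trend was taken out (0.12, adjusted p = 0.013). Per kilobase of exon LBR was at 36.5 CPM and TM7SF2 at 4.15 CPM in control cells. NSDHL, a sterol dehydrogenase, rose with PRGL493 (32.9 ± 0.653 to 43.2 ± 0.923 CPM, log2FC 0.39, SE 0.07, adjusted p = 0.00048), and SC5D, a sterol desaturase, did so too (58.6 ± 2.76 to 76.6 ± 5.96 CPM, log2FC 0.39, SE 0.06, adjusted p = 0.00012). In knockdown cells NSDHL was at 30.4 ± 3.59 CPM and SC5D at 60.3 ± 0.786 CPM, and neither was called, though NSDHL was lower without knockdown replicate 2 (-0.19, adjusted p = 0.035) and once the length and GC trend was taken out (-0.19, adjusted p = 0.021). HSD17B7, a ketosteroid reductase with a pseudogene that may share its reads, was the lowest of the 31 per kilobase (2.44 CPM in control cells). Its small rise with PRGL493 (11.7 ± 1.18 to 13.9 ± 0.615 CPM, log2FC 0.25, SE 0.09, adjusted p = 0.028) was lost without control replicate 1 (0.18, adjusted p = 0.15), control replicate 3 (0.057) or PRGL493 replicate 2 or 3 (0.10 and 0.089), and in DESeq2 (0.05).

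**Figure D4:**
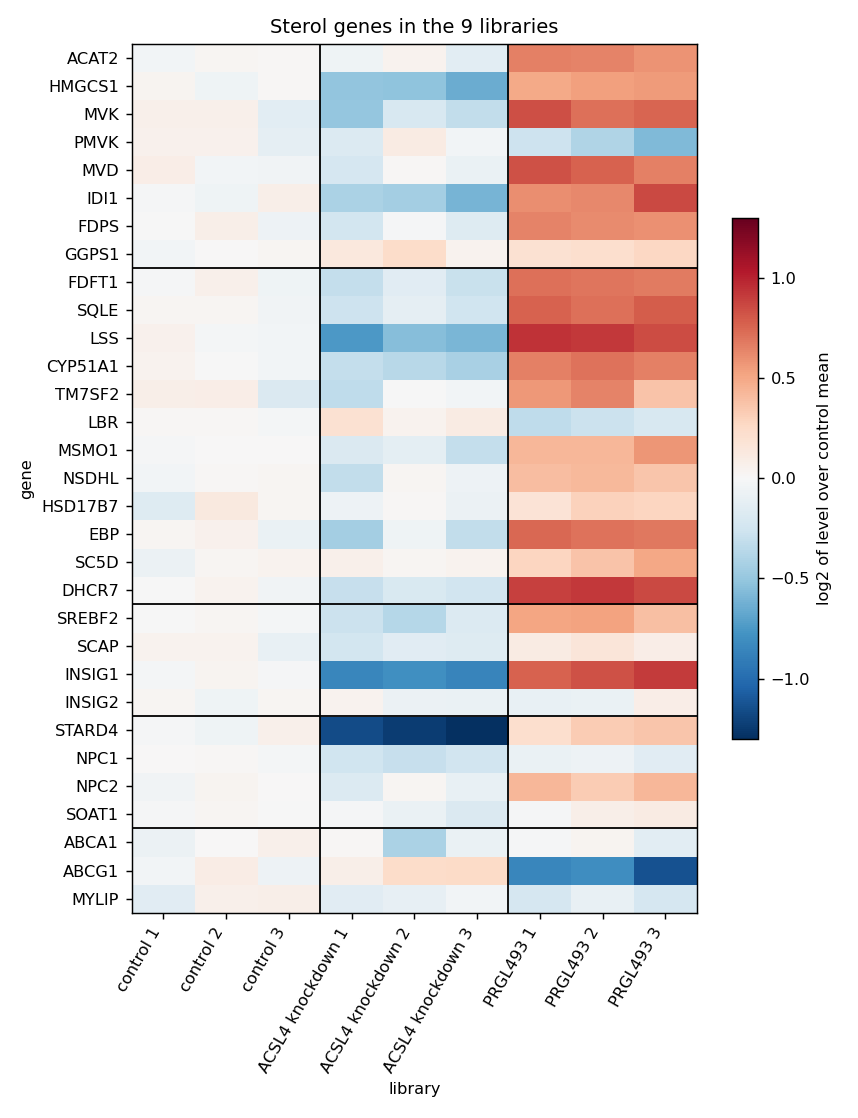
Level of each of the 31 sterol genes (y axis, role groups parted by lines) in each of the 9 libraries (x axis), as the log2 of its level over the mean of the control libraries, from blue for lower to red for higher. Most enzymes are pale blue in the knockdown columns and red in the PRGL493 columns, and STARD4 is the deepest blue in knockdown, at 24.9 to 29.1 CPM.

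Among the carriers, STARD4 had the deepest fall of all 31 genes in knockdown cells. STARD4 moves cholesterol between membranes and is itself switched on by SREBP2. It was at 64.5, 63.1 and 68.6 CPM with the empty vector, 29.1, 27.9 and 24.9 after knockdown and 75.9, 82.0 and 83.8 under PRGL493, so every knockdown library lay far below every control. Knockdown left 41.8% of its RNA (log2FC -1.26, SE 0.07, adjusted p = 4.3e-10), and PRGL493 raised it 1.23-fold (log2FC 0.30, SE 0.07, adjusted p = 0.0014). On the log2 scale its fall in knockdown cells was larger than its rise with PRGL493. STARD4 lies on the minus strand of chromosome 5 from 111496033 to 111512590, and STARD4-AS1 overlaps 2.2% of its exon bases. NPC1 and NPC2 hand cholesterol out of the lysosome, as membrane protein and soluble partner. NPC1 fell in knockdown cells (261 ± 3.88 to 216 ± 3.98 CPM, log2FC -0.27, SE 0.04, adjusted p = 0.0003). With PRGL493 it was at 244 ± 6.65 CPM (log2 fold change -0.10, adjusted p = 0.091), and it was called lower without knockdown replicate 2 (adjusted p = 0.044), with upper-quartile factors (adjusted p = 0.041), with a filter of at least 1 CPM in 3 libraries (adjusted p = 0.042), in a fit of the groups compared alone (adjusted p = 0.019) and once the length and GC trend was taken out (adjusted p = 0.015). NPC2, the highest of the 31 per kilobase at 89.2 CPM in control cells, rose with PRGL493 (245 ± 6.81 to 324 ± 12.7 CPM, log2FC 0.40, SE 0.06, adjusted p = 2.6e-05). In knockdown cells NPC2 was at 232 ± 16.7 CPM and was not called (adjusted p = 0.29), but was lower without knockdown replicate 2 (-0.14, adjusted p = 0.028) and once the length and GC trend was taken out (-0.20, adjusted p = 0.00049). SOAT1, which esterifies cholesterol for storage, was at 159 ± 2.30, 149 ± 8.67 and 166 ± 7.14 CPM in control, knockdown and PRGL493 cells and was called in neither treatment.

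Of the 3 LXR-type genes, the efflux pumps ABCA1 and ABCG1 and the ubiquitin ligase MYLIP, 0 were called in knockdown cells and 1 was lower with PRGL493. Of all genes tested 15.3% were lower and 14.7% higher in knockdown cells, and 20.4% were lower and 21.4% higher with PRGL493. A count over 3 genes is too small to set against these shares. ABCG1, which passes cholesterol to mature lipoprotein particles, was at 20.9, 22.8 and 20.5 CPM with the empty vector, 22.6, 25.4 and 25.4 after knockdown and 11.9, 12.3 and 9.79 under PRGL493. Every PRGL493 library lay far below every control library, a 1.89-fold fall (log2FC -0.92, SE 0.09, adjusted p = 5.6e-07). It was the largest fall of the 31 genes with PRGL493. In knockdown cells ABCG1 overlapped the controls (log2FC 0.19, SE 0.08, adjusted p = 0.096), and it was called higher without knockdown replicate 1 (0.25, adjusted p = 0.032), with library totals alone (adjusted p = 0.046) and once the length and GC trend was taken out (adjusted p = 0.022). ABCG1 lies on the plus strand of chromosome 21 from 42199689 to 42297244. ABCA1, which loads cholesterol onto apolipoproteins, was at 143, 152 and 158 CPM with the empty vector, 153, 114 and 142 after knockdown and 149, 155 and 138 under PRGL493. Its groups overlapped, with 95% intervals of the log2 fold change of -0.34 to 0.05 in knockdown cells and -0.24 to 0.16 with PRGL493. The low library of ABCA1 was knockdown replicate 2. Long transcripts stood low in that library. ABCA1 was also not called in knockdown cells once the length and GC trend was taken out, and the part of the trend in its value is not given here. The knockdown value of ABCA1 was -0.03 (adjusted p = 0.69) without knockdown replicate 2 and -0.24 (adjusted p = 0.047) without knockdown replicate 1. MYLIP was at 23.6, 27.3 and 27.5 CPM with the empty vector, 23.6, 24.3 and 25.5 after knockdown and 22.6, 24.4 and 22.6 under PRGL493. It too overlapped between groups (knockdown log2FC -0.10, SE 0.07, adjusted p = 0.34, PRGL493 log2FC -0.18, SE 0.07, adjusted p = 0.064), and it was called lower with PRGL493 without control replicate 1 (-0.24, adjusted p = 0.021), without knockdown replicate 1 (adjusted p = 0.041) or 2 (adjusted p = 0.032), with upper-quartile factors (adjusted p = 0.040), with the filter of 1 CPM (adjusted p = 0.040) and in a fit of the groups compared alone (adjusted p = 0.022).

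Set beside each other, 18 of 20 enzymes rose and 2 fell with PRGL493, against 0 and 1 of the 3 LXR-type genes. Of all genes tested 21.4% rose and 20.4% fell with PRGL493. The median of the enzymes was 0.62, and the pumps were at -0.92 (ABCG1) and -0.04 (ABCA1) and MYLIP at -0.18. In knockdown cells 10 of 20 enzymes and 0 of the 3 fell, where 15.3% of all genes tested fell. The median there was -0.17 for the enzymes, and the values were 0.19, -0.15 and -0.10 for ABCG1, ABCA1 and MYLIP. The difference between the lists was not tested, since it rests on 3 genes picked by name.

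Knockdown and PRGL493 were compared directly, to ask where knockdown of the gene and the inhibitor differ. Control levels are not a reference in this comparison. The control libraries count towards the filter on low counts, the TMM factors and the shared estimate of the spread. Of the 31 genes 27 were called. Of these 24 were lower and 3 higher in knockdown than in PRGL493 cells, where 26.0% of all genes tested were lower and 24.4% higher. The median difference of the 31 was -0.67 and that of the 20 enzymes -0.80 on the log2 scale, and that of all genes -0.01. INSIG1 differed most, 3.18-fold lower in knockdown (log2FC -1.67, SE 0.05, adjusted p = 2.8e-13). STARD4 (2.95-fold, log2FC -1.56, SE 0.07, adjusted p = 1.7e-11) and LSS (2.89-fold, log2FC -1.53, SE 0.06, adjusted p = 2.4e-12) came next. HMGCS1, MVK, IDI1, CYP51A1 and DHCR7 were also more than 1 log2 unit lower, from -1.04 for CYP51A1 to -1.19 for IDI1. SREBF2 itself differed by -0.75 (SE 0.06). The 3 genes that were higher in knockdown than with PRGL493 were ABCG1 (2.16-fold, log2FC 1.11, SE 0.09, adjusted p = 3.5e-08), LBR (0.39) and PMVK (0.37). The 4 not called were GGPS1, INSIG2, ABCA1 and MYLIP, with 95% intervals of -0.22 to 0.04, -0.13 to 0.12, -0.31 to 0.09 and -0.07 to 0.23. The call of SOAT1 (log2FC -0.15, SE 0.05, adjusted p = 0.024) was lost without knockdown replicate 3, PRGL493 replicate 2 or PRGL493 replicate 3 (adjusted p = 0.13, 0.10 and 0.12), with upper-quartile factors (adjusted p = 0.13), in a fit of these groups alone (adjusted p = 0.056) and once the length and GC trend was taken out (adjusted p = 0.05). INSIG2 (-0.11, adjusted p = 0.014) and GGPS1 (-0.19, adjusted p = 0.0040) were called lower once the length and GC trend was taken out.

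Other genes of sterol handling, 68 in 6 lists of which 64 were tested, moved in both directions. In knockdown cells 17 were lower (26.6%, against 15.3% of all genes tested) and 6 higher (9.38%, against 14.7%), with a median of -0.06. With PRGL493 16 were lower (25%, against 20.4%) and 23 higher (35.9%, against 21.4%), with a median of 0.03. The lists below are small and are read against these same shares of all genes. SREBF1, which encodes the lipogenic SREBP1 and is a target of LXR as well as of SREBPs, fell to 157 ± 6.75 from 199 ± 12.0 CPM in knockdown cells (log2FC -0.34, SE 0.06, adjusted p = 0.00024) and rose to 310 ± 14.0 CPM with PRGL493 (0.64, SE 0.06, adjusted p = 1.6e-07). The list of 12 LXR receptors, partners and other LXR targets was drawn up by name and mixes these kinds, so its counts are not those of LXR targets alone. Of the 12, 6 were higher and 2 lower with PRGL493 (50.0% and 16.7%, against 21.4% and 20.4% of all genes). Those higher were SREBF1, ABCA7 (0.53, adjusted p = 7.3e-05), LPCAT3 (0.43, adjusted p = 3.1e-05), RXRA (0.37, adjusted p = 5.9e-05), NR1H2 (0.34, adjusted p = 0.00087) and RXRB (0.18, adjusted p = 0.028), of which the last 5 were named after their values were seen. PLTP, a phospholipid transfer protein switched on by LXR, went down to 10.7 ± 0.998 from 19.1 ± 0.926 CPM (-0.83, SE 0.09, adjusted p = 3.1e-06), and the other call in that direction was APOE (-0.58, SE 0.20, adjusted p = 0.028), whose libraries overlapped the controls and which was also named after its value was seen. In knockdown cells 1 of the 12 was higher and 2 were lower (8.33% and 16.7%, against 14.7% and 15.3%).

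In the isoprenoid branch 4 of 12 genes rose and 3 fell with PRGL493 (33.3% and 25%, against 21.4% and 20.4% of all genes), and 3 rose and 3 fell in knockdown cells (25% each, against 14.7% and 15.3%). The share that fell with PRGL493 is near that of all genes. ICMT, which methylates prenylated proteins, rose in both, from 97.8 ± 1.74 to 136 ± 3.11 CPM with PRGL493 (log2FC 0.47, SE 0.05, adjusted p = 9.5e-07) and to 109 ± 1.60 CPM in knockdown cells (0.16, SE 0.05, adjusted p = 0.021). COQ2, which prenylates the ring of ubiquinone, fell with PRGL493 (-0.50, adjusted p = 3.6e-05) and in knockdown cells (-0.28, adjusted p = 0.0065). NUS1, a subunit of the dolichol-making transferase, fell with PRGL493 (-0.42, adjusted p = 1.4e-05) and was not called in knockdown cells (-0.01, adjusted p = 0.94). FNTA, a subunit of protein prenyltransferases, rose in knockdown cells (0.25, adjusted p = 0.0025) and with PRGL493 (0.18, adjusted p = 0.012), and the direct comparison did not call it (0.06, adjusted p = 0.33). Of 9 further regulators of SREBP processing 5 fell and 0 rose in knockdown cells (55.6% and 0%, against 15.3% and 14.7% of all genes), and 5 fell and 3 rose with PRGL493 (55.6% and 33.3%, against 20.4% and 21.4%). Of 24 sterol transport genes tested, 5 fell and 2 rose in knockdown cells (20.8% and 8.33%), and 6 fell and 5 rose with PRGL493 (25% and 20.8%). With PRGL493 both shares are near those of all genes, 20.4% and 21.4%. The smallest adjusted p of a fall in knockdown cells was that of SCARB2, a lysosomal membrane protein that binds cholesterol (291 ± 10.6 to 172 ± 7.82 CPM, -0.76, SE 0.05, adjusted p = 6.6e-09). The lipoprotein receptor VLDLR rose there (57.4 ± 1.5 to 80.9 ± 3.04 CPM, 0.50, SE 0.05, adjusted p = 3.9e-06). Of 6 oxysterol and bile acid genes 3 were tested. With PRGL493 1 rose and 0 fell (33.3% and 0%, against 21.4% and 20.4% of all genes). In knockdown cells 0 were called, where 15.3% of all genes fell and 14.7% rose. A count over 3 genes is too small to set against these shares. CH25H, among the 3, was near the floor, at 0.52 CPM in control and 0.25 CPM in knockdown and PRGL493 cells.

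Libraries of a group lay closest together in control cells. The SD over 3 libraries was a median of 3.69% of the mean over the 31 genes in control cells, 6.32% in knockdown cells and 4.31% with PRGL493. It was widest for TM7SF2 in control (10.4%), ABCA1 in knockdown (14.9%) and ABCG1 in PRGL493 cells (11.8%). At least 316 counts lay behind every value of the 31 genes, the fewest being those of ABCG1 in a PRGL493 library. Estimated counts that were not whole numbers occurred in all 9 libraries for ACAT2 and NPC1 and in 8 for FDPS and HSD17B7. RUSC1-AS1 overlaps 18.6% of the exon bases of FDPS, and IDI2-AS1 14.8% of those of IDI1, both on the opposite strand.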

How the data were processed

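The 9 RNA-seq libraries were grouped by sample titles, 3 per group. The authors deposited 1 table with an estimated count per gene and library, not scaled for depth, in which 10.5% of values were not whole. These estimated counts were rounded here. The submitters' processing notes name GRCh38. The aligner, counting tool, annotation release and strand setting were not given in the sources used here.

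Of 26475 rows, 6932 were 0 throughout, and 14135 passed edgeR's filterByExpr. Groups were compared with edgeR 4.0.16 (R 4.3.3): TMM factors, the quasi-likelihood test with robust fitting over all 9 libraries (6 residual degrees of freedom), and Benjamini-Hochberg adjustment over all genes tested. A gene was called at an adjusted p below 0.05. Levels are CPM, counts scaled to library size by TMM factors, as mean ± SD of 3 libraries, and fold changes are log2 with the standard error (SE).

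The genes and lists were chosen with earlier results of these data known. Values in every library are given for genes called with an absolute log2 fold change of at least 0.5 in a treatment against control, and for ABCA1, ABCG1, MYLIP, SREBF2, SCAP and INSIG2. From other lists, up to 3 called genes per direction and treatment were named by smallest adjusted p. A gene that this rule names is not reported here. Positions, lengths and overlaps are from GENCODE v29 on GRCh38. The labels do not say that replicate numbers mark shared batches, so the main fit did not pair libraries by number. Deviations from the group means correlated at -0.08 to 0.15 between libraries of the same number (9 pairs, 2 over 0.1). Between libraries of different numbers they ran from -0.14 to 0.08 (18 pairs, 0 over 0.1). For control with knockdown the same-number values were 0.11, 0.15 and 0.06, and the others -0.14 to 0.03. Same-number values with a PRGL493 library ran from -0.08 to -0.02. Pairing of control with knockdown libraries is therefore not excluded, and a fit with a replicate block is among the alternatives. Alternatives were other scalings (RLE, upper-quartile, library totals), filters, DESeq2 1.42.0, limma-voom 3.58.1, fits of 2 groups, a replicate block, a length and GC trend removed, and leaving out each library.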

Additional observations from a re-analysis of the deposited data

How the results depend on the processing

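No called fold change of the 31 genes changed sign under the alternatives run. RLE factors, no filter, limma-voom and the replicate block kept all 15 calls in knockdown, all 25 with PRGL493 and all 27 in the direct comparison. With the replicate block the 31 genes counted 0 higher and 15 lower in knockdown cells, 22 higher and 3 lower with PRGL493, and 3 higher and 24 lower in the direct comparison. The count of 0 higher in knockdown cells became 2 with upper-quartile factors, 3 with library totals, and 2 once the length and GC trend was taken out, without or with the replicate block. For the enzymes alone it became 2, 2, 1 and 1 in the same order. The 3 lower with PRGL493 became 5 with upper-quartile factors, with at least 1 CPM in 3 libraries and in a fit of 2 groups, NPC1 and MYLIP being added. The cause was not tested. Leaving out each library gave 0 to 1 higher (enzymes 0 to 1) and 12 to 18 lower (enzymes 7 to 12) in knockdown cells, 21 to 22 higher and 3 to 5 lower with PRGL493, and 23 to 24 lower in the direct comparison. Of all calls in knockdown cells 49.0% were higher, and 58.7% with upper-quartile factors or 59.8% with library totals. In the direct comparison the share went from 48.4% to 58.4% with upper-quartile factors. With PRGL493 it went from 51.3% to 60.1% (3030 to 4273 higher genes) once the length and GC trend was taken out. With 3 libraries a group, small changes can be missed.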
